A study of Mus musculus with 12 samples.

Results

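The genes followed here drive or hold back the step from G1 into S phase: the D cyclins Ccnd1, Ccnd2 and Ccnd3, the E cyclins Ccne1 and Ccne2, the cyclin-dependent kinases (CDKs) Cdk4 and Cdk2, the CDK inhibitors Cdkn1a (p21) and Cdkn1b (p27), and the transcription factor E2f1. They were chosen by gene symbol, and a probe was given to a gene where its RefSeq accession mapped to that symbol. This gave 10 genes of 25260 tested and 17 probes of 41174 on the array, and all 17 probes were bright enough to be kept. Of the 25260, 14632 had a gene symbol, and the rest were array identifiers without one. Each counts as 1 gene in the shares of all genes below. Ccnd2 had 3 probes, 5 genes had 2 and 4 genes had 1.

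Cyclin D with Cdk4, and cyclin E with Cdk2, phosphorylate the retinoblastoma protein, which frees E2F factors to switch on the genes of DNA replication. The inhibitors p21 and p27 bind these kinases and slow the step. In mouse liver, activators of the nuclear receptor PPARα such as Wy-14643 make hepatocytes divide and the liver grow, and the transcription factor Myc is a known regulator of several G1 genes.

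RNA of whole mouse liver was compared among 4 groups, all of strain C57BL/6 and all carrying floxed Myc alleles (MycF/F). Livers of MycF/F,ERT2-Cre mice came from a 0.1% Wy-14643 diet (4 arrays) or a control diet (4 arrays), and livers of MycF/F mice without Cre from the Wy-14643 diet (3 arrays) or the control diet (1 array), each for 2 days. The labels call MycF/F,ERT2-Cre "ko" and MycF/F "wt", so the Cre-negative control also carries the floxed alleles. ERT2-Cre is a Cre recombinase fused to a changed oestrogen receptor that tamoxifen activates; the labels name neither the promoter that drives it nor a tamoxifen schedule, sex or age. The single MycF/F control array is labelled as pooled liver, and the labels do not say that the other arrays are separate animals, so p-values measure the spread between arrays, which may be technical. Each array set sample RNA in Cy5 against a pooled liver reference in Cy3, and every value below is a log2 ratio of sample to that pool, so it compares groups for 1 gene and not genes with each other.

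The 12 arrays lay on 3 slides of 4, each scanned on its own, with 64.6% to 77.1% of spots well above background in Cy5. On the 4 arrays of slide 1, 5.47% to 8.35% of spots were marked as outliers, against 0.904% to 1.84% on the arrays of slides 2 and 3. Of 10 listed hepatocyte markers 8 were measured, and all 8 were well above background on all arrays. Myc, the targeted gene, was lower in MycF/F,ERT2-Cre than in MycF/F livers on Wy-14643 by 2 of its 3 probes: on the probe with 10 spots its log2 ratio was -1.21 to -0.96 on the 4 MycF/F,ERT2-Cre arrays and 0.52 to 0.88 on the 3 MycF/F arrays, a difference of -1.85 (SE 0.17, adjusted p = 0.00381). Its brightest probe differed by -0.57 (adjusted p = 0.269), and it was not checked which of the 3 probes lie in the floxed part of the gene. On control diet the 10-spot probe was at -1.06 to -0.22 on the 4 MycF/F,ERT2-Cre arrays and at 0.22 on the MycF/F array, a difference of -0.98 (unadjusted p = 0.00193, limma) that did not pass after adjustment. The array of MycF/F,ERT2-Cre control replicate 2 stands apart: its Cy3 background was fitted with an SD of 154, against at most 7.89 on the other 11 arrays, and its log2 ratios had a median absolute deviation of 0.090, against 0.230 to 0.307. The main counts below are given without it where they are first stated.

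Promoters are shown for Cdk4 and Cdkn1a because they were the only genes of the 10 that passed the test upward. Both are the 250 bases before a RefSeq transcription start, GRCm38.p6, and capitals mark motif matches: in Cdk4 the E-box CACGTG, which Myc binds with Max, and in Cdkn1a the core of a p53 site, CATG and CATG with any 6 bases between.
Cdk4 chr10:127063285-127063534 (+): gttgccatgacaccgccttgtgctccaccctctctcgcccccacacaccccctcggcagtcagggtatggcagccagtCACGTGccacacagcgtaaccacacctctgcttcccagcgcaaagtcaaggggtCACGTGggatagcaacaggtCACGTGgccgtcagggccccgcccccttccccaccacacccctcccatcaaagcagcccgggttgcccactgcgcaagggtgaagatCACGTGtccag
Cdkn1a chr17:29090729-29090978 (+): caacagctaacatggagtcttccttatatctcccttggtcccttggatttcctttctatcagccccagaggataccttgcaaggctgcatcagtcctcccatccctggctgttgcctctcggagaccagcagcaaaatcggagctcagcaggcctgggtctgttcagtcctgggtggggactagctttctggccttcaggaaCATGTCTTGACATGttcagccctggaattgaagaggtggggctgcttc
The Cdk4 promoter holds 4 E-boxes, the nearest ending 6 bases before the start. Among 32538 mouse promoters of the same length, 6.036% hold at least 1 such E-box and 0.0215% (7 promoters) hold 4 or more. The Cdkn1a window is that of the upstream of its 2 listed starts, and its match ends 35 bases before that start. The window of the downstream start holds no such core. Among all promoters 0.4641% hold such a core, and this motif was added to the search after the sequence had been read.

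Promoters were listed for 7 of the 10 genes, 9 windows in all, and both strands were searched. None of these motifs overlapped another in these windows. The E2F motifs TTTCCCGC, TTTGGCGC and TTTCGCGC (1.5459% of all promoters) matched only the Cdk2 promoter among these 7 genes, and the PPARα motif, AGGTCA repeated in the same direction with any 1 base between (0.0338%), matched none. The only E2f1 window lies inside the annotated gene, downstream of its outermost start, so the sequence before that start was not searched. A match is a run of letters in these windows and no evidence of binding.

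In MycF/F,ERT2-Cre livers, where Myc was targeted, the CDK inhibitor Cdkn1a and the kinase Cdk4 rose, and cyclin E1 (Ccne1) and the CDK inhibitor Cdkn1b fell, with the Wy-14643 diet. These 4 of 10 genes passed the test (limma, adjusted p under 0.05 over all genes), against 16.4% of all genes tested (9.1% higher and 7.27% lower). Without control replicate 2, and with the slide as a block, the count was also 4. The median of the 10 differences was -0.25 on the log2 scale, against 0.030 over all genes. The liver was sampled whole, so fewer cells of a type and less RNA per cell cannot be told apart.

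**Figure D1:**
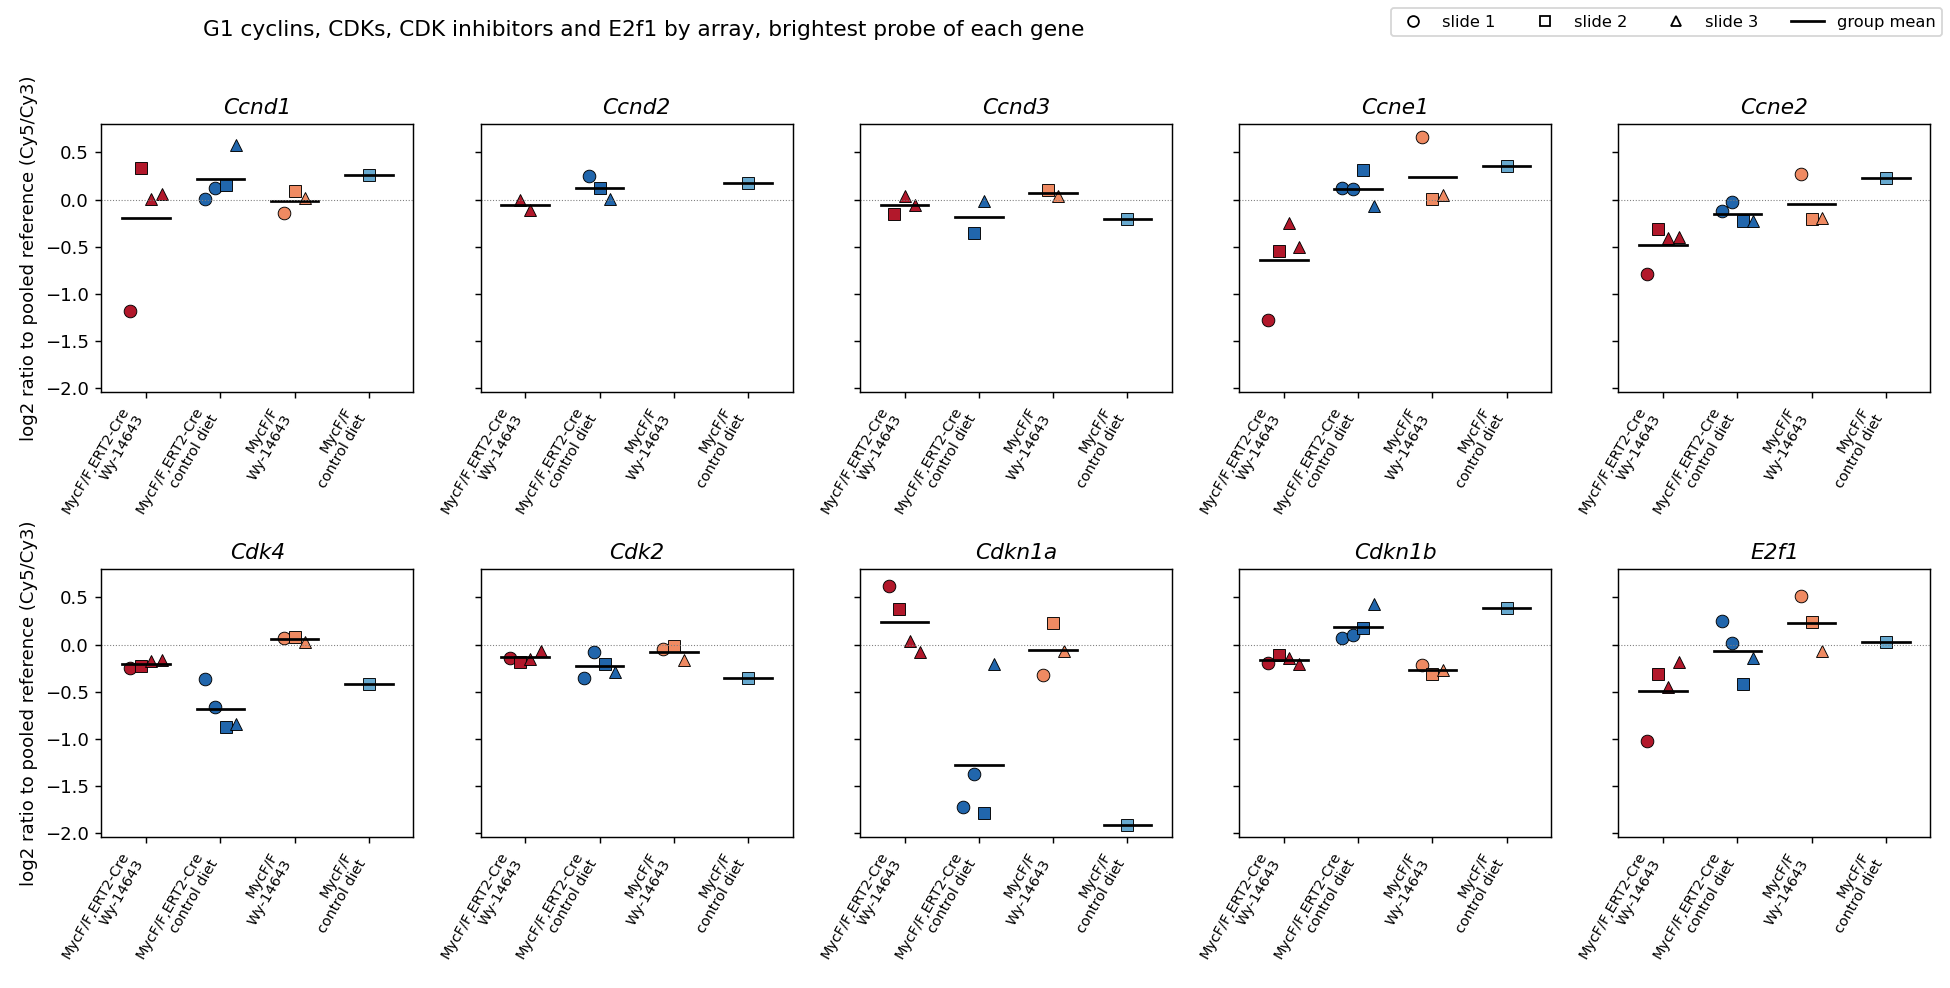
Log2 ratio of each liver sample to the pooled reference (y axis) for the brightest probe of each of the 10 genes, by group (x axis); points are arrays, shapes are slides and bars are group means. Cdkn1a lay between -0.079 and 0.63 on the 4 MycF/F,ERT2-Cre Wy-14643 arrays and between -1.79 and -0.21 on the 4 control arrays, and Ccnd2 has no point in MycF/F livers on Wy-14643.

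The D cyclins, which bind Cdk4 and carry growth signals to it, gave no call in any comparison. Ccnd1, the main D cyclin of dividing hepatocytes, was at -1.18, 0.33, 0.0036 and 0.057 in Wy-14643-fed MycF/F,ERT2-Cre livers, against 0.011, 0.12, 0.16 and 0.58 on control diet. One Wy-14643 array, replicate 1 on slide 1, was far below the other 3, which overlapped the control arrays. The difference was -0.41 (95% interval -0.98 to 0.15, adjusted p = 0.339), and without that array -0.085 (adjusted p = 0.737). The MycF/F livers had Ccnd1 at -0.14, 0.090 and 0.021 on Wy-14643, against 0.26 on the control array (difference -0.27, adjusted p = 0.873).

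Ccnd2 was read by 3 probes, and its brightest had spots marked as outliers on 6 arrays, among them all 3 of MycF/F on Wy-14643. On the arrays left it was at -0.00092 and -0.11 in Wy-14643-fed MycF/F,ERT2-Cre livers, against 0.25, 0.12 and 0.0058 on control diet, a difference of -0.18 (adjusted p = 0.376). Its other 2 probes had values on all 12 arrays and gave 0.14 (adjusted p = 0.551) and 0.040 (adjusted p = 0.789) in the same comparison. The 3 probes differed in sign, with no call.

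Ccnd3, a D cyclin found in many tissues, had values on 8 arrays, none of them on slide 1, where its spot was left out as an outlier. It was at -0.16, 0.033 and -0.053 in Wy-14643-fed MycF/F,ERT2-Cre livers, against -0.36 and -0.015 on control diet, and the groups overlapped. The difference was 0.13 (95% interval -0.17 to 0.43, adjusted p = 0.586).

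Cdk4, the kinase partner of the D cyclins, was at -0.25, -0.22, -0.18 and -0.17 in Wy-14643-fed MycF/F,ERT2-Cre livers, against -0.36, -0.66, -0.88 and -0.84 on control diet. All 4 Wy-14643 arrays lay above all 4 control arrays and close to each other (SD 0.039, against 0.23 on control diet). The difference was 0.48 (SE 0.10, 1.40-fold, adjusted p = 0.00645). It was 0.26, 0.65 and 0.67 within slides 1, 2 and 3. The call was lost with the deposited log ratios (0.46, adjusted p = 0.0912), with median centring in place of loess (0.48, adjusted p = 0.298) and with Cy5 alone (0.33, adjusted p = 0.675).

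MycF/F livers had Cdk4 at 0.073, 0.085 and 0.031 on Wy-14643, against -0.41 on the 1 control array. That difference, also 0.48 (SE 0.17), did not pass (adjusted p = 0.132). The order of group means was MycF/F on Wy-14643 (0.063), MycF/F,ERT2-Cre on Wy-14643 (-0.20), MycF/F on control diet (-0.41) and MycF/F,ERT2-Cre livers fed control diet (-0.68). The single MycF/F control array fell inside the range of the 4 MycF/F,ERT2-Cre control arrays, so the last 2 groups in this order did not differ beyond their spread.

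Among the E cyclins, which activate Cdk2 late in G1, Ccne1 was at -1.28, -0.54, -0.25 and -0.50 in Wy-14643-fed MycF/F,ERT2-Cre livers, against 0.12, 0.11, 0.31 and -0.072 on control diet. Every Wy-14643 array lay below every control array, replicate 1 the lowest. Ccne1 fell by 0.76 on the log2 scale (SE 0.20, 1.69-fold, adjusted p = 0.0236), and was lower in Wy-14643 livers within each slide, at -1.39, -0.85 and -0.30 within slides 1, 2 and 3. Without control replicate 3 the value was -0.70 (adjusted p = 0.0568), with median centring -0.70 (adjusted p = 0.134) and with Cy5 alone -0.93 (adjusted p = 0.106). The dimmer Ccne1 probe gave -0.19 (adjusted p = 0.141), with -0.21, -0.24, -0.14 and -0.23 on the Wy-14643 arrays against -0.048, 0.0036, -0.17 and 0.16 on the control arrays, and these overlapped.

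MycF/F livers had Ccne1 at 0.67, 0.011 and 0.048 on Wy-14643, against 0.36 on the control array, which lay between the Wy-14643 arrays. The difference there was -0.12 (95% interval -0.84 to 0.61, adjusted p = 0.946). The test of the difference between the diet effects of the genotypes gave -0.64 (95% interval -1.49 to 0.21), so the diet effect on Ccne1 was not shown to differ between them. By group means Ccne1 stood at 0.36 in MycF/F on control diet, 0.24 in MycF/F on Wy-14643, 0.12 in control-fed MycF/F,ERT2-Cre and -0.64 in Wy-14643-fed MycF/F,ERT2-Cre livers. The MycF/F Wy-14643 arrays overlapped both control groups, and the lone MycF/F control array lay just above the highest of the 4 MycF/F,ERT2-Cre control arrays (0.31).

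Ccne2, the second E cyclin, was at -0.79, -0.32, -0.41 and -0.39 in Wy-14643-fed MycF/F,ERT2-Cre livers, against -0.12, -0.027, -0.22 and -0.23 on control diet. These ranges did not overlap, but the difference of -0.33 (SE 0.13) did not pass the test (adjusted p = 0.111). Its dimmer probe gave -0.25 (adjusted p = 0.336). Cdk2, the kinase that E cyclins activate, was at -0.14, -0.18, -0.15 and -0.069 in Wy-14643-fed MycF/F,ERT2-Cre livers, against -0.35, -0.077, -0.20 and -0.29 on control diet. The groups overlapped and the difference was 0.094 (95% interval -0.074 to 0.26, adjusted p = 0.478), with 0.021 on the other probe. Both Cdk2 probes had a median net Cy5 signal below the offset of 50 added before logs were taken. So had the dimmer probes of Ccne1, Ccne2, Cdkn1b and E2f1, which makes 6 of the 17 probes. The offset shrinks differences on every probe, and most on dim ones such as these 6.

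The CDK inhibitor Cdkn1a, which halts the cycle downstream of p53 and of other signals, had the largest difference of the 10 genes in this comparison. It was at 0.63, 0.38, 0.035 and -0.079 in Wy-14643-fed MycF/F,ERT2-Cre livers, against -1.72, -1.38, -1.79 and -0.21 on control diet. Control replicate 4 lay just below the lowest Wy-14643 array, and the other 3 control arrays lay far below it. The difference was 1.51 (SE 0.30, 2.85-fold, adjusted p = 0.00387). It was 2.17 within slide 1, 2.16 within slide 2 and 0.19 within slide 3, which holds control replicate 4. Without that replicate it was 1.87 (adjusted p = 6.33e-05), and without the 4 arrays of slide 1 it was 1.11 and did not pass (adjusted p = 0.0598).

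MycF/F livers had Cdkn1a at -0.32, 0.23 and -0.071 on Wy-14643, against -1.91 on the control array. The difference was 1.86 (SE 0.49, 3.62-fold, adjusted p = 0.0405). All 7 Wy-14643 arrays of both genotypes lay between -0.32 and 0.63, and 4 of the 5 control arrays lay at or below -1.38. The call in MycF/F livers rests on 1 control array and held in 10 of 22 alternatives. It was lost, for example, with the slide as a block (1.83, adjusted p = 0.0665) and without MycF/F Wy-14643 replicates 1 (1.99, adjusted p = 0.0531), 2 (1.71, adjusted p = 0.105) or 3 (1.86, adjusted p = 0.0856). Leaving out MycF/F,ERT2-Cre Wy-14643 replicate 2, 3 or 4, which enter through the shared variance, also lost it (adjusted p = 0.0618, 0.0601 and 0.0552).

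Cdkn1b, the inhibitor that holds resting cells out of the cycle, was at -0.20, -0.11, -0.14 and -0.20 in Wy-14643-fed MycF/F,ERT2-Cre livers, against 0.068, 0.098, 0.17 and 0.43 on control diet. The groups did not overlap. It fell by 0.35 on the log2 scale (SE 0.085, 1.28-fold, adjusted p = 0.0129), and the difference was -0.28, -0.28 and -0.60 within slides 1, 2 and 3. It was at -0.22, -0.31 and -0.27 in MycF/F livers on Wy-14643, against 0.39 on the control array, a fall of 0.66 (SE 0.14, adjusted p = 0.0126). These values are from a probe with 10 spots.

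The second Cdkn1b probe, with 1 spot, gave no call. It was at -0.17, 0.11, -0.029 and 0.089 in Wy-14643-fed MycF/F,ERT2-Cre livers, against -0.33, 0.029, 0.10 and 0.0017 on control diet, and the groups overlapped. The difference on it was 0.051 (95% interval -0.18 to 0.29, adjusted p = 0.810), and in MycF/F livers -0.019 (adjusted p = 0.987). With the mean of both probes the gene was at -0.15 in MycF/F,ERT2-Cre livers (adjusted p = 0.269) and at -0.34 in MycF/F livers (adjusted p = 0.204). Which transcript each probe reads was not tested.

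E2f1, which switches on S-phase genes once freed, was at -1.02, -0.31, -0.45 and -0.19 in Wy-14643-fed MycF/F,ERT2-Cre livers, against 0.25, 0.018, -0.41 and -0.14 on control diet. The groups overlapped, with Wy-14643 replicate 1 the lowest array. The difference was -0.42 (SE 0.19, adjusted p = 0.174), and -0.040 without slide 1 (adjusted p = 0.890). Its 10-spot probe gave -0.18 (adjusted p = 0.354). MycF/F livers had E2f1 at 0.51, 0.24 and -0.069 on Wy-14643, against 0.026 on the control array (difference 0.20, adjusted p = 0.870).

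**Figure D2:**
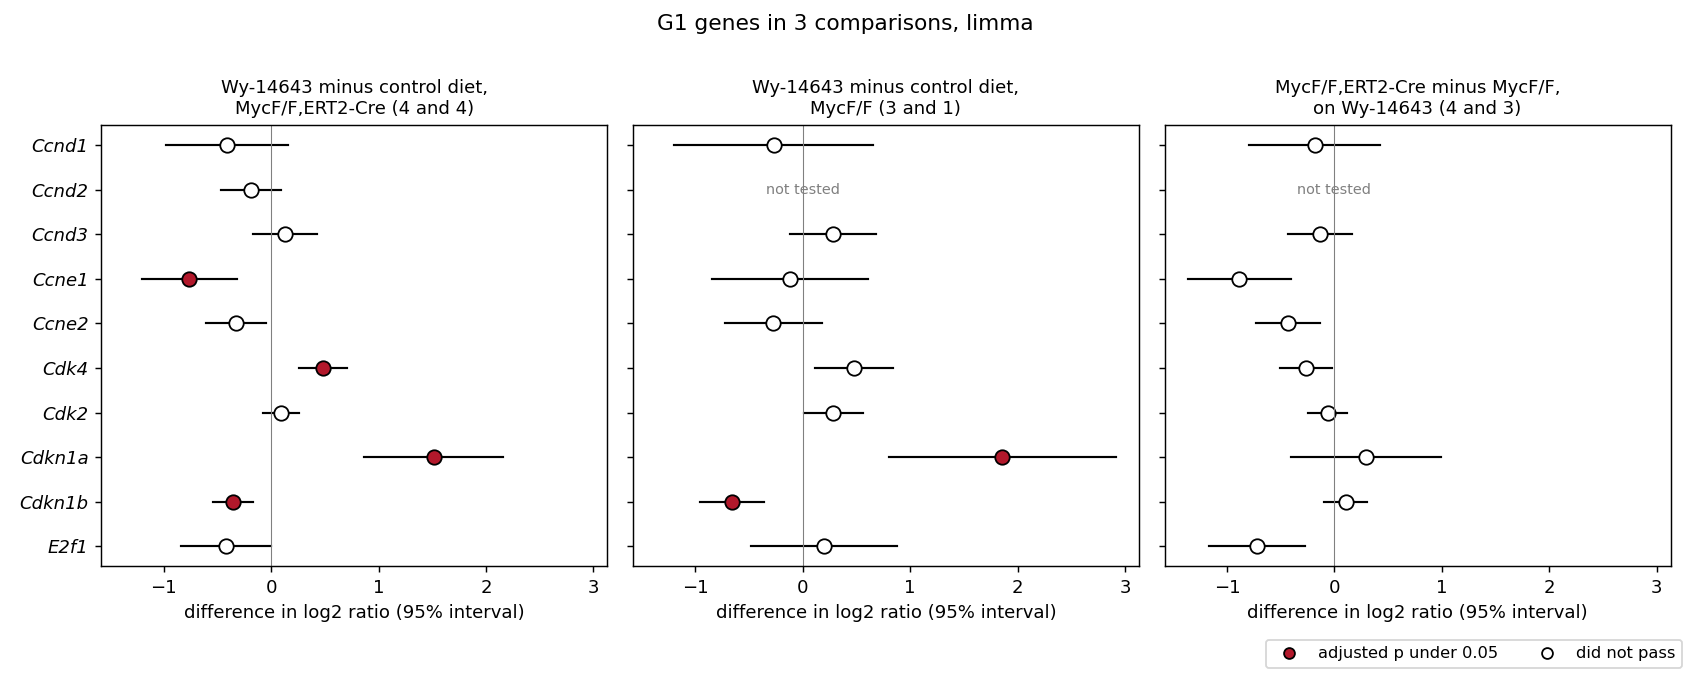
Difference in log2 ratio with its 95% interval (x axis) for each of the 10 genes (rows) in 3 comparisons; filled points passed the test. In Wy-14643-fed MycF/F,ERT2-Cre livers against control diet 4 genes passed, in MycF/F livers 2 of 9, and between genotypes on Wy-14643 0 of 9, with Ccne1 (-0.89) and E2f1 (-0.72) the lowest there.

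**Figure D3:**
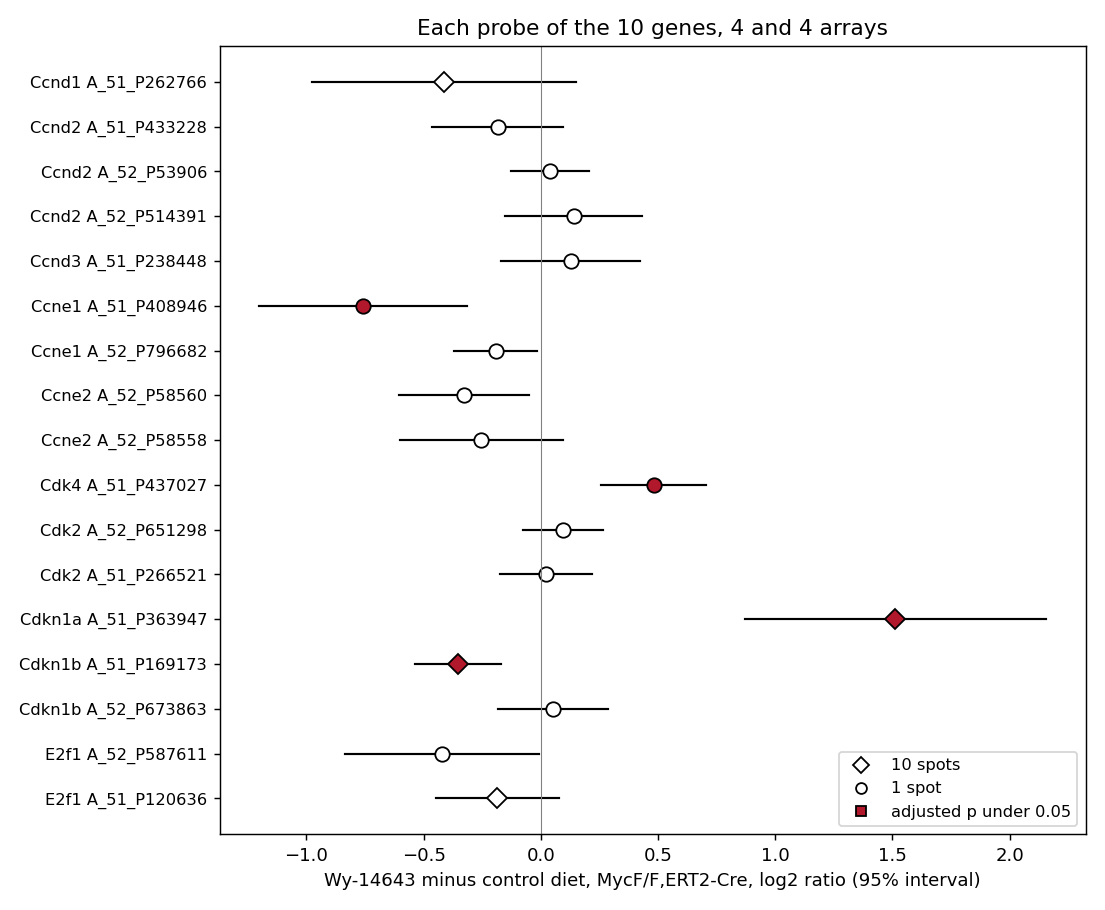
Difference in log2 ratio on Wy-14643 against control diet in MycF/F,ERT2-Cre livers, with 95% intervals (x axis), for each of the 17 probes (rows), the brightest of each gene first; diamonds are probes with 10 spots and filled points passed the test. The second probes of Ccne1 (-0.19) and Cdkn1b (0.051) did not pass.

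At the level of probes, 4 of 17 passed in MycF/F,ERT2-Cre livers, against 16.5% of all probes kept. They were the 1 probe each of Cdkn1a and Cdk4 and the brighter probes of Ccne1 and Cdkn1b. In MycF/F livers 2 of 16 probes passed, against 6.55%.

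The diet comparison in MycF/F livers, 3 arrays against 1, had 2 of 9 genes past the test, Cdkn1a upward and Cdkn1b downward, against 6.53% of all genes (3.26% higher and 3.26% lower). Without MycF/F,ERT2-Cre control replicate 2, which enters this comparison only through the shared variance, the count was also 2. The fit takes the lone control array to vary like the other groups. Both diet comparisons moved these 2 genes the same way. They used separate arrays but a shared variance, so they are not independent tests. The second Cdkn1b probe gave 0.051 in MycF/F,ERT2-Cre and -0.019 in MycF/F livers, with no call. No gene of the 9 differed in its diet effect between the genotypes (limma, adjusted p under 0.05 in 0 of 9, against 0% of all genes; unadjusted p under 0.05 in 0, against 2.18%).

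The genotype comparison on Wy-14643 asks how the G1 genes stood in liver on Wy-14643 with Myc targeted. No gene of 9 passed (limma, 4 arrays against 3), against 0.107% of all genes (0.0239% higher and 0.0835% lower). Without MycF/F,ERT2-Cre control replicate 2, which enters here only through the shared variance, the count was also 0. The 4 genes with an unadjusted p under 0.05 (8.34% of all genes) were all lower in MycF/F,ERT2-Cre livers. Ccnd2, whose brightest probe had no value in MycF/F livers on Wy-14643, was not among the 9. Its other probes, given below, were higher in MycF/F,ERT2-Cre livers, at unadjusted p = 0.0175 and 0.00472 (limma). Ccne1, with the array values given above, differed by -0.89 (95% interval -1.37 to -0.40, adjusted p = 0.183). E2f1 differed by -0.72 (95% interval -1.17 to -0.27, adjusted p = 0.237), Ccne2 by -0.43 (adjusted p = 0.290) and Cdk4 by -0.27 (95% interval -0.51 to -0.027, adjusted p = 0.515). For each of these 4 genes, every MycF/F,ERT2-Cre array lay below every MycF/F array on Wy-14643. The 4 had been picked by their unadjusted p, so this adds no separate evidence. The share of all genes separated in this way was not counted. The other probes of these genes gave smaller differences, at -0.068 for Ccne1 (adjusted p = 0.968), -0.30 for E2f1 (adjusted p = 0.563) and -0.39 for Ccne2 (adjusted p = 0.580). These probes had a median net Cy5 signal below the offset of 50, which shrinks differences most on dim probes. Its part in the smaller values was not tested.

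The sizes depended on slide 1. There E2f1 differed by -1.53 and Ccne1 by -1.95 between 1 array of each genotype, against -0.55 and -0.55 within slide 2 and -0.25 and -0.42 within slide 3. For Cdk4 the within-slide values were -0.32, -0.31 and -0.20. Without slide 1, Ccne2 stood at -0.17 (adjusted p = 0.519), E2f1 at -0.40 (adjusted p = 0.269) and Ccne1 at -0.46 (adjusted p = 0.195).

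On their brightest probes, the other 5 genes tested did not reach an unadjusted p of 0.05. Cdkn1a differed by 0.29 (95% interval -0.40 to 0.99), Cdkn1b by 0.10 (-0.095 to 0.30), Ccnd1 by -0.19 (-0.80 to 0.43), Ccnd3 by -0.13 (-0.43 to 0.17) and Cdk2 by -0.063 (-0.24 to 0.12). The other Cdk2 probe gave -0.25, with an unadjusted p of 0.0223 (limma, adjusted p = 0.460). Ccnd2's brightest probe was not tested here. Its other 2 probes gave 0.40 (limma, unadjusted p = 0.0175, adjusted p = 0.421) and 0.29 (unadjusted p = 0.00472, adjusted p = 0.256), higher in MycF/F,ERT2-Cre livers. On the second of these the 4 MycF/F,ERT2-Cre arrays were at -0.27 to -0.041 and the 3 MycF/F arrays at -0.44 to -0.41.

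On control diet, 0 of 10 genes differed between 4 MycF/F,ERT2-Cre arrays and the 1 MycF/F array (limma; 0% of all genes), and 0 had an unadjusted p under 0.05 (1.8% of all genes). Differences ran from -0.38 for Ccne2 (95% interval -0.82 to 0.060) to 0.64 for Cdkn1a (-0.39 to 1.66), and the interval for Cdkn1a includes differences as large as that with diet.

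**Figure D4:**
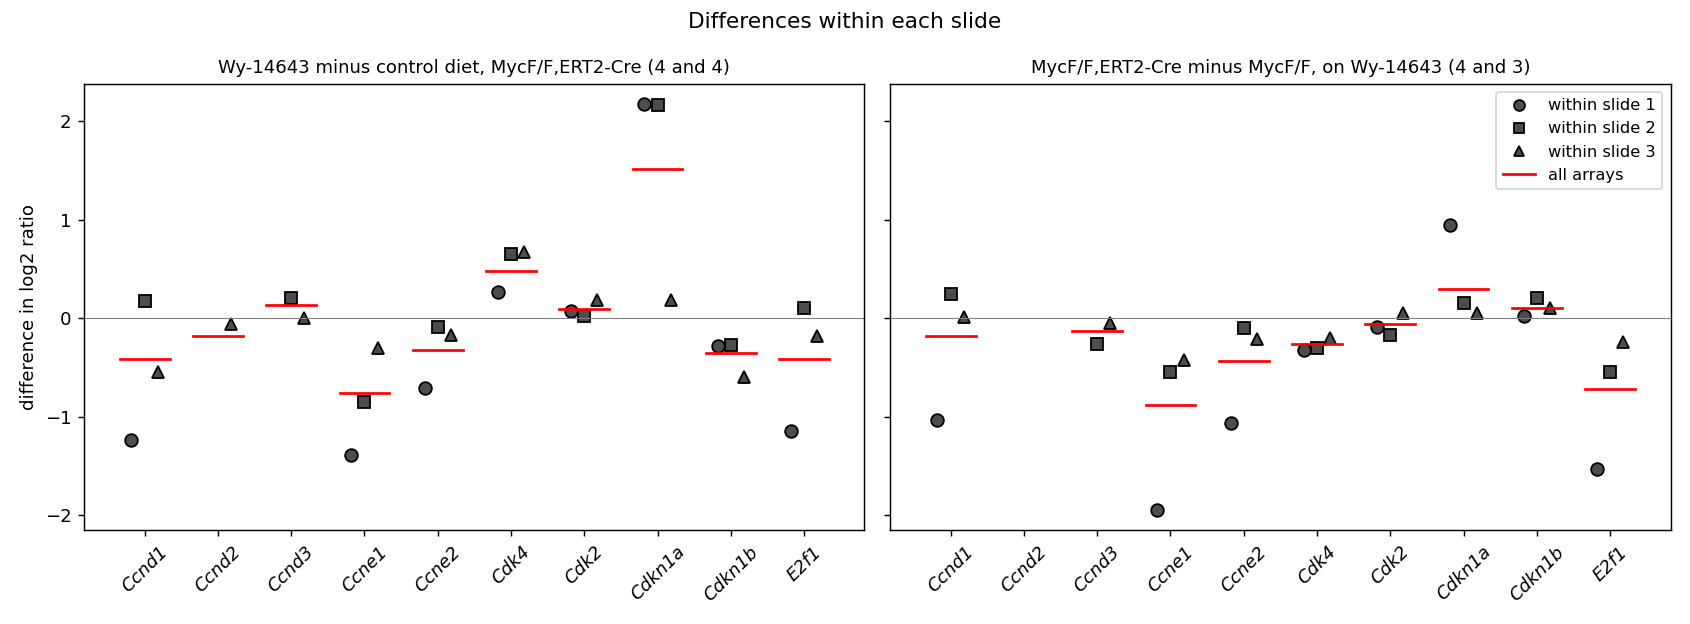
Difference in log2 ratio (y axis) for each gene (x axis) within slides 1, 2 and 3 (shapes) and over all arrays (red bars), for the diet comparison in MycF/F,ERT2-Cre livers and the genotype comparison on Wy-14643. Cdkn1a differed by 2.17 and 2.16 with diet within slides 1 and 2 and by 0.19 within slide 3, and Ccne1 was lower within every slide in both comparisons.

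Of 29 other listed genes of the G1 machinery (CDK inhibitors, pocket proteins, E2Fs and their partners, and Myc itself) 26 were measured. With the diet in MycF/F,ERT2-Cre livers 2 rose and 3 fell. That is 19.2% of the list, near the 16.4% of all genes, and its median of 0.034 was near the 0.030 over all genes. The repressor E2f6 rose by 0.63 (adjusted p = 0.00125) and the atypical repressor E2f8 by 0.56 (adjusted p = 0.00429). Cyclin A2 (Ccna2, -0.81), the activator E2f2 (-0.60) and the Cdk4 inhibitor Cdkn2c (-0.39) fell.

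Target genes of E2F in S phase were measured for 25 of 28. In Wy-14643-fed MycF/F,ERT2-Cre livers against control diet 4 fell (16%, against 7.27% of all genes) and none rose (against 9.1%), with a median of -0.34. Among those that fell were Mcm10, a replication origin factor (-1.82), Ccna2, which is in both lists (-0.81), and thymidine kinase Tk1 (-0.77). That median was -0.023 without slide 1, with 4 lower and 1 higher. Of 18 measured mitosis genes 6 fell (33.3%, against the same 7.27%), among them the topoisomerase Top2a (-1.22), the anaphase activator Cdc20 (-1.01), its ubiquitin-conjugating partner Ube2c (-0.80) and the spindle protein Prc1 (-0.72). The mitosis median was -0.31, and -0.16 with 4 lower when Wy-14643 replicate 1 was left out.

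Between genotypes on Wy-14643, none of the 25 S-phase genes passed, but their median was -0.87 in MycF/F,ERT2-Cre against MycF/F livers, against 0.021 over all genes. The mean of the list on each array was -0.92 to -0.33 in MycF/F,ERT2-Cre livers and -0.013 to 0.65 in MycF/F livers. The largest differences were in the hemimethylated-DNA reader Uhrf1 (-1.69, adjusted p = 0.172) and the replicative helicase subunit Mcm5 (-1.64, adjusted p = 0.172). Without slide 1 the median was -0.53 and 6 of the 25 passed as lower, against 0.299% of all genes in that setting, while 0 of the 9 G1 genes tested did. The other G1 list had a median of -0.051 here and 0 calls, with the CDK subunit Cks1b at -0.88 (adjusted p = 0.169). That list includes Myc, the targeted gene, read from its brightest probe (-0.57, adjusted p = 0.257). The other Myc probes passed, at -1.85 and -1.82. Mitosis genes had a median of -0.21 (Top2a -0.998, adjusted p = 0.253), p53 targets -0.0085 (Aen -0.55, adjusted p = 0.247) and PPARα targets 0.047 (Fgf21 0.60, adjusted p = 0.594), also with 0 calls each.

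Cdkn1a is a p53 target, and 19 other p53 targets were measured. In MycF/F,ERT2-Cre livers 3 of them rose with Wy-14643 (the death receptor Fas by 0.98, Ei24 by 0.65 and Perp by 0.32) and 3 fell (the stress cytokine Gdf15 by 1.01, Phlda3 by 0.69 and the apoptosis factor Bax by 0.32), against 9.1% of all genes higher and 7.27% lower, with a median of -0.12. All 16 PPARα targets rose, with a median of 2.94, which checks the diet labels. Cyp4a14, a fatty acid hydroxylase, rose by 4.72. With the lone control array of MycF/F, 1 of 26 other G1 genes rose, 1 of 25 S-phase genes fell, 0 of 18 mitosis genes passed, 1 of 19 p53 targets rose and 13 of 15 PPARα targets rose. Over all genes 3.26% rose and 3.26% fell there, so all but the PPARα count were near or below that share.

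Marker levels moved with the diet beside these genes, where 7.27% of all genes fell. In MycF/F,ERT2-Cre livers 6 of 10 Kupffer cell markers were lower on Wy-14643, and their mean log2 ratio was -0.38 to -0.14 on the Wy-14643 arrays, against 0.11 to 0.84 on the control arrays. Of 8 hepatocyte markers 5 were lower, at -0.30 to 0.14 against 0.56 to 0.89, and of 10 stellate cell markers 4 were lower, at -0.40 to -0.039 against 0.17 to 0.26. Erythroid markers were lower for 2 of 5, with means of -0.45 to -0.14 against -0.099 to 0.64. For endothelium 2 of 10 and for lymphocytes 2 of 10 were lower, none of 8 passed for neutrophils, and of 6 cholangiocyte markers 1 was higher and 1 lower. Between genotypes on Wy-14643 no marker passed, and the Kupffer cell mean was -0.38 to -0.14 in MycF/F,ERT2-Cre and -0.70 to -0.37 in MycF/F livers. Their part in the changes of the G1 genes was not tested.

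**Figure D5:**
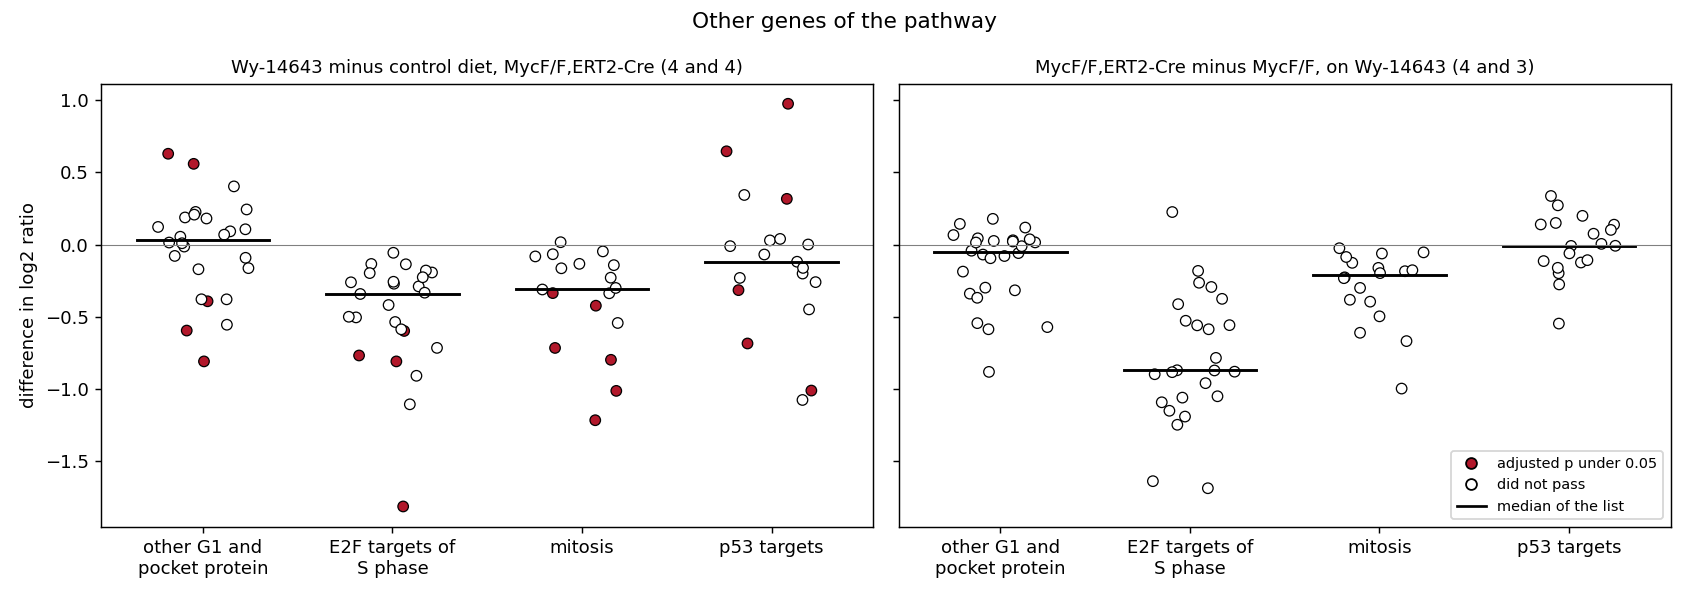
Difference in log2 ratio (y axis) of each measured gene in 4 lists (x axis), for diet in MycF/F,ERT2-Cre livers and for genotype on Wy-14643; filled points passed the test and bars are list medians. In the genotype comparison no point passed, and the S-phase list had a median of -0.87.

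For each G1 gene that passed in MycF/F,ERT2-Cre livers, the genes with the most similar pattern over all 12 arrays were found among 11636 named genes with values on every array. They are a description, since the arrays share groups and slides. Ccne1 ran closest to the cohesin protector Sgo1 (Pearson r = 0.948), Cks1b (0.948) and the uracil glycosylase Ung (0.937). Cdk4 ran closest to E2f8 (0.983), the mitochondrial ribosomal gene Mrps17 (0.963) and the purine synthesis enzyme Adsl (0.962). Cdkn1a ran closest to Gstm7 (0.931), Rnf121 (0.926) and the lipid droplet gene Plin5 (0.925), and Cdkn1b to Gal3st2 (0.978), S1pr3 (0.967) and Homer2 (0.965).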

How the data were processed

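Liver RNA of 12 samples, amplified as antisense RNA per the labels' protocols, was read on 2-colour Agilent arrays. Per the file headers and the submitters' processing notes, the authors scanned them with Agilent Feature Extraction 11.0.1.1. The deposited intensity columns hold the median signal and local background of each spot in scanner units, not normalized, and the deposited log10 ratios of Cy5 over Cy3 were background-subtracted and dye-normalized by that software (10.5% to 19.0% of them are exactly 0 on an array). Array signals give no counts, and the number of arrays limits precision.

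From the intensities, background was corrected by normexp (offset 50) and ratios by loess within each array in limma 3.58.1 (R 4.3.3, statmod 1.5.0, the data.table package 1.17.8). Control spots had no weight in loess, outlier spots were left out and spots of a probe averaged. A probe was kept if well above background in Cy5 on at least 3 arrays (31846 of 41174), and a gene was read from its brightest kept probe. The linear model had 1 mean per group over 12 arrays with moderated variances; tests were two-sided with Benjamini-Hochberg adjustment over all genes, and a call is an adjusted p under 0.05. Intervals are 95% intervals of that fit, not adjusted. The scripts were tested on simulated data.

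The G1 genes and gene lists were chosen with earlier results of these data known. All 10 G1 genes are named; from other lists, at most the 4 largest calls in each direction, or the 2 largest values where none was called, in comparisons of at least 3 arrays a side; and the 3 most similar genes of each called G1 gene. One gene that this rule names is not reported here. Alternatives changed the slide or replicate block, the normalization, the channel, outlier and dim-probe filters, the probe rule, the arrays used and single arrays. Same-numbered arrays of different groups correlated at -0.072 to 0.416 in their deviations from group means (10 pairs), so replicate numbers were not taken as pairs. All 13 pairs of arrays of different groups on one slide correlated positively (0.076 to 0.416), and the model has no term for slide; the slide as a block and values within slides are given beside the results. Array files of different samples were not identical (highest correlation 0.895). Gene coordinates were not used to place probes, since the array design and the RefSeq table use different builds.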

Additional observations from a re-analysis of the deposited data

Results flagged for a closer look

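The 10-spot probe of E2f1 had 1 array apart from the rest in Wy-14643-fed MycF/F,ERT2-Cre livers: replicate 1 was at -0.481, and the other 3 arrays lay between -0.089 and -0.040. It was found by comparing the gap of the most distant array with the range of its group, in 30 groups of 4 arrays, of which chance picks about 1 in 20; this was the only one picked. The same array was also the lowest of its group for the brighter E2f1 probe (-1.02), for Ccnd1 (-1.18), for Ccne1 (-1.28) and for Ccne2 (-0.79).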

How the results depend on the processing

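The 4 calls in MycF/F,ERT2-Cre livers kept their direction in all 23 alternatives. Some of these could not change it: leaving out a MycF/F array or using only the groups compared alters the variance and not the difference. The replicate block also left these 4 differences as they were. Over all comparisons and G1 genes, 1125 alternative values were computed, of which 51 had the opposite sign where the value had not been called, among them Cdk4 in the test of the difference between diet effects (8 of 22). Cdk4, Ccne1 and Cdkn1b were called in 20 alternatives each and Cdkn1a in 22. The number of G1 genes called there was 1 with median centring and 1 with Cy5 alone, and 3 to 4 with single arrays left out; over all genes it was 886, 1276 and 3105 to 4038, against 4113. In MycF/F livers, 2 G1 genes were called; 1 with the slide block, the replicate block, no filter on dim probes or the mean over probes, 0 with median centring or Cy5 alone, 4 without slide 1 (Cdk4 and Ccne2 added), and 1 to 3 with single arrays left out. Over all genes the count there was 1054 with deposited log ratios, 216 with median centring, 255 with Cy5 alone, 2831 without slide 1 and 1089 to 1879 with single arrays left out, against 1626. With the deposited log ratios Cdk2 was called in MycF/F livers (0.99, adjusted p = 0.0471). The genotype comparison on Wy-14643 kept 0 G1 genes in every alternative, while the count over all genes moved between 0 (replicate block, deposited log ratios, median centring, Cy5 alone, subtraction with offset 10), 41 (outlier spots kept), 48 (only the groups compared) and 107 (without slide 1), and 0 to 35 with single arrays left out, against 27. On control diet it was 4 with Cy5 alone and 2 without slide 1, against 0. The cause of these moves was not tested. As the replicate numbers share no source in the labels, the replicate block is given only here: it changed 1 G1 call, that of Cdkn1a in MycF/F livers (1.83, adjusted p = 0.0612), and 4 of 11 arrays correlated best with their own number.

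Medians of the gene lists moved by more than the spread between arrays in these settings. Deposited log ratios gave -0.70 (diet) and -1.38 (genotype) for S-phase genes, -0.75 and -0.52 for mitosis genes, -0.20 for p53 targets and 3.12 for PPARα targets with diet. Without slide 1 the S-phase medians were -0.023 and -0.53. Cy5 alone gave -0.068 for other G1 genes, 0.0012 for p53 targets and 2.67 for PPARα targets with diet, and -0.097 for PPARα targets between genotypes. Median centring gave -0.20 for p53 and 3.16 for PPARα targets, offset 10 gave -0.20 and 3.12, the replicate block gave 3.16 and the slide block 3.10 for PPARα targets. With single arrays left out, the PPARα median with diet was 2.79 to 3.04 and the p53 median between genotypes -0.031 to 0.054. Plain background subtraction, chosen after seeing the fitted background of control replicate 2, gave the same 4 calls with either offset. Of 17 probes 6 were dimmer than the offset, which bounds how small a change could be seen on them.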
